A study of Mus musculus with 7 samples.

Results

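The NF-kB subunits and their inhibitors were followed here as 10 genes: the subunit genes Nfkb1, Nfkb2, Rel, Rela and Relb, the IkB genes Nfkbia, Nfkbib and Nfkbie, the nuclear IkB gene Nfkbiz, and Tnfaip3, which encodes the ubiquitin-editing protein A20. They were taken by symbol from a table of 23038 genes, and all 10 were in it. Each library was made with Smart-seq2, which amplifies full-length cDNA from few cells, out of 150 sorted haematopoietic stem cells (HSCs). The mutant group was Mx1-cre; Mettl3 fl/fl mice (4 libraries) and the control group was Cre-negative littermates (3 libraries), all C57BL/6 adults. Mettl3 encodes the catalytic subunit of the enzyme that places N6-methyladenosine on mRNA. Mutants and controls alike were given pIpC, in 5 injections of 10 µg, and were analysed 10 days later. pIpC mimics double-stranded RNA: it switches on Mx1-cre through interferon and is itself a trigger of innate signalling. Mx1-cre acts in most blood cells and in other interferon-responsive cells, so the deletion was not restricted to HSCs. HSCs were sorted from bone marrow as Lineage- Sca1+ cKit+ CD150+ CD48- cells.

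The table gives 1 value per gene and group in RPKM (reads divided by gene length and by library size), so no spread between animals could be computed and no difference below has a replicate check or a p-value. Differences are given as a fold, the ratio of the deposited values, or as log2((mutant + 1) / (control + 1)), which understates the change of low genes. Genes are called apart when they differ at least 2-fold on that log2 scale, which sorts genes by size alone. Mettl3 itself was at 9.60 RPKM in mutants and 49.8 RPKM in controls, 19.3% of the control value. Of the 9 HSC markers checked, all had reads in both groups, 3 higher and 6 lower in mutants. Ly6a (Sca1) was at 167 RPKM in mutants and 152 RPKM in controls. Markers of other cell types were also checked. Of 7 T and natural killer cell markers 4 were without reads, and their summed level was 1.97 RPKM in mutants and 3.03 RPKM in controls. The macrophage receptor genes Csf1r and Emr1 had no reads in either group, although Lyz2 was at 289 RPKM in mutants and 406 RPKM in controls. Of the 6 macrophage and monocyte markers with reads, 4 were higher and 2 lower in mutants. C1qa was at 1.38 RPKM in mutants and 0.212 RPKM in controls, and C1qb was at 0.904 RPKM in mutants and 1.87 RPKM in controls. Cd14 and Cd5l, without reads in controls, were at 0.790 and 0.513 RPKM in mutants. Cd79b, a B cell marker, was at 133 RPKM in mutants and 132 RPKM in controls, whereas Cd79a and Ms4a1 had no reads. Igj, a plasma cell marker, had no reads in mutants and was at 1.59 RPKM in controls. Sdc1, in the same list of B and plasma cell markers, went the other way, at 5.80 RPKM in mutants and 3.14 RPKM in controls. The 5 neutrophil markers in the table summed to 5.83 RPKM in mutants and 14.6 RPKM in controls, with Camp at 0.562 RPKM in mutants and 6.37 RPKM in controls, and S100a9 without reads in mutants and at 1.99 RPKM in controls. The 4 erythroid markers summed to 15.07 RPKM in mutants and 6.98 RPKM in controls, with Hbb-b1 at 7.79 RPKM in mutants and 2.30 RPKM in controls. The 6 endothelial and stromal markers summed to 54.6 RPKM in mutants and 23.8 RPKM in controls. Most of that was Pecam1, at 50.1 RPKM in mutants and 22.0 RPKM in controls, and Sparc was at 3.90 RPKM in mutants and 1.34 RPKM in controls. Of the 5 with reads, 4 were higher and 1 lower in mutants. Kdr and Cdh5 were below 1 RPKM in both groups. Cxcl12 had no reads in mutants and was at 0.184 RPKM in controls, and Col1a1 had no reads in either group. The part of any of these cell types in the values of the members was not tested.

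NF-kB is a family of dimeric transcription factors. Rela, Rel and Relb encode subunits that carry a transactivation domain, whereas Nfkb1 and Nfkb2 encode the precursors p105 and p100, which are processed to the DNA-binding subunits p50 and p52. In resting cells IkB proteins hold the dimers in the cytoplasm. Signals from tumour necrosis factor, interleukin 1 and Toll-like receptors activate the IKK kinase complex, which marks IkB for destruction and frees the canonical dimers. A slower, non-canonical route through the kinase NIK, encoded by Map3k14, processes p100 and acts through Relb. Several family members and inhibitors are themselves NF-kB targets, which makes a feedback loop. In blood stem cells NF-kB is known for roles in survival, self-renewal and the response to inflammation.

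The sequences upstream of the members show which of them carry the recognition letters of their own family. RefSeq promoters on GRCm38.p6, from 250 bases before to 50 after each annotated start, were found for 7 of the 10 members: Nfkb2, Rel, Rela, Nfkbia, Nfkbib, Nfkbie and Tnfaip3. The NF-kB consensus of 10 letters, which starts with GGG and ends with CC, was searched on both strands. It was present in 5 of these 7 genes (71.4%), all but Rela and Nfkbib, against 5.72% of the 15690 genes of the table that have a promoter and 4.51% of all 32851 promoters of this length. Of 26 textbook target genes with a promoter, 9 had it (34.6%). The promoters of 3 members are shown because they separate the strongly expressed inhibitor, a precursor gene with several matches, and the subunit that differed most between the groups. Capitals mark the bases that match the consensus on either strand, and overlapping matches are merged.
Nfkbia, chr12:55492598-55492897, minus strand: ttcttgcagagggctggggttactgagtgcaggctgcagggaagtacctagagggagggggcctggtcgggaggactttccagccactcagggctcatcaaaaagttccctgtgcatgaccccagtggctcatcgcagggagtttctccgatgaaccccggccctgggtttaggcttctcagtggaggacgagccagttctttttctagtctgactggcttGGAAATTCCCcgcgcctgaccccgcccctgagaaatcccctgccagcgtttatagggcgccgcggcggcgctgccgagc
Nfkb2, chr19:46304487-46304786, plus strand: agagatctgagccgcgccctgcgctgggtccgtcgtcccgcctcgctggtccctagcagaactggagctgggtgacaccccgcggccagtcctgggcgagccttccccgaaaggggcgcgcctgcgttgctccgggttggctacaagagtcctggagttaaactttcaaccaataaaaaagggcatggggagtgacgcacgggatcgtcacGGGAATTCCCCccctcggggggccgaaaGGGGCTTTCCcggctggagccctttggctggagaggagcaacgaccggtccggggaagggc
Rela, chr19:5637291-5637590, plus strand: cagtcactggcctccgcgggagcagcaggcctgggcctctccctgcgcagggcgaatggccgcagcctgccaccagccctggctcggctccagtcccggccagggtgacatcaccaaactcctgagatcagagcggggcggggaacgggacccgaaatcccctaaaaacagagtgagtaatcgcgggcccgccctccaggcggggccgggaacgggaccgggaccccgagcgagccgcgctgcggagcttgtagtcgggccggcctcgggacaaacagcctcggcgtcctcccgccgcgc
The match of Nfkbia begins 29 bases upstream of the annotated start and reads GGAAATTCCC on the strand shown. The first of the 3 annotated Nfkb2 starts has 2 separate matches, beginning 39 and 11 bases upstream, and the match at 39 bases overlaps a further match on the other strand by all but 1 base. Rel has a match that begins 92 bases upstream, Nfkbie 106 bases upstream, and the outer start of Tnfaip3 has 2, at 125 and 12 bases upstream. These are matches of letters and not measured binding sites.

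All 10 members were expressed, at 1 RPKM or more in both groups, but their levels differed widely. Nfkbia exceeded Rel 167-fold in both groups. Nfkbia was by far the most abundant, at 344 RPKM in mutants and 281 RPKM in controls, rank 190 of 23038 genes in mutants and 286 in controls. Rel and Tnfaip3 were the lowest. Rel was at 2.06 RPKM in mutants and 1.68 RPKM in controls. RPKM are per length of gene model, so levels of different genes compare only as far as the lengths used, which are not stated, hold. For Nfkb1 the GENCODE exons cover 12061 bases, whereas its longest coding transcript has 4117. The order of the members in mutants was Nfkbia, Rela, Nfkb1, Nfkbib, Nfkbie, Relb, Nfkb2, Nfkbiz, Tnfaip3 and Rel. In controls Nfkb1 stood before Rela, Nfkbiz before Nfkb2, and the lowest were Tnfaip3 and Rel, in that order. Whether neighbours in this order differ beyond the spread between animals cannot be said from group values.

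**Figure D1:**
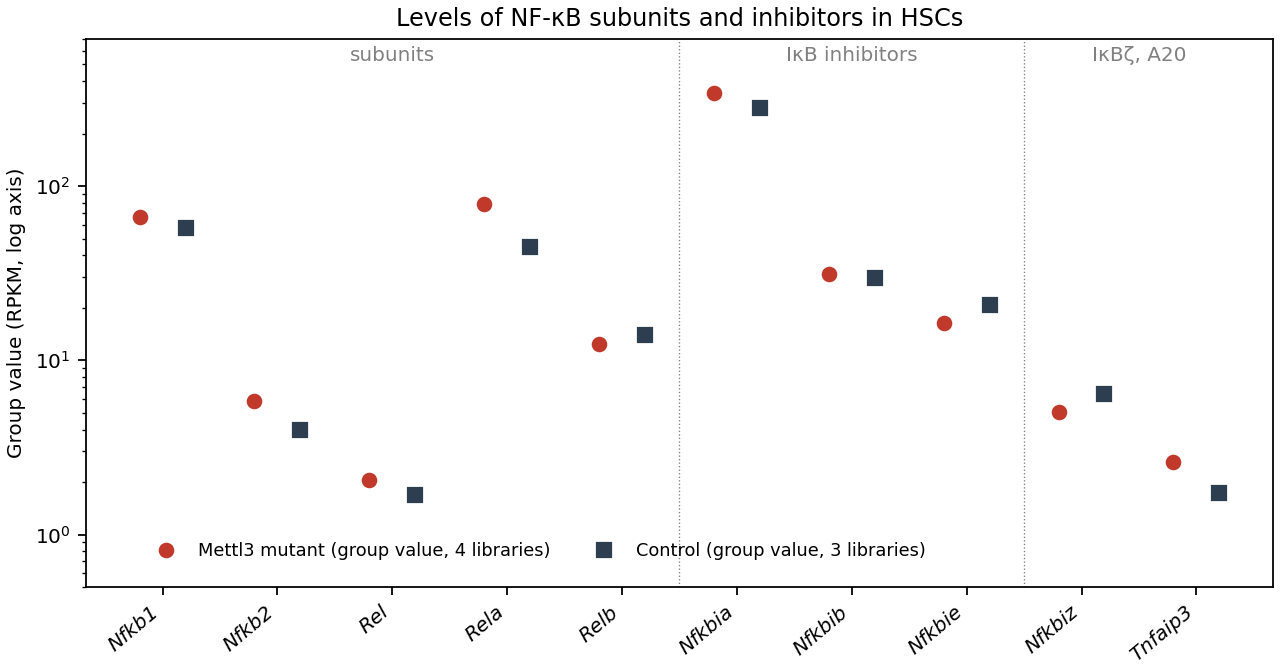
Deposited group values (RPKM, log axis) of the 10 members, with Mettl3 mutants as circles on the left and controls as squares on the right of each pair. Nfkbia lies highest, at 344 RPKM in mutants and 281 RPKM in controls, and the widest relative gap among the subunits is that of Rela.

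No member was at least 2-fold apart (0 of 10), where 7.14% of the 14539 genes with reads were, 3.67% higher and 3.47% lower in mutants. In the mutant value 7 members were higher and 3 lower, beside 52.6% of all genes with reads that were higher. Their median log2 ratio was 0.20, against 0.02 over all genes with reads, and single values lay between -0.33 for Nfkbie and 0.79 for Rela. At a 1.5-fold threshold on this scale Rela was the only member apart, although the ratio of the deposited values of Tnfaip3 was also above it (1.51), and 23.4% of all genes with reads passed it. The share of members apart was thus no larger than that of the table at large.

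**Figure D2:**
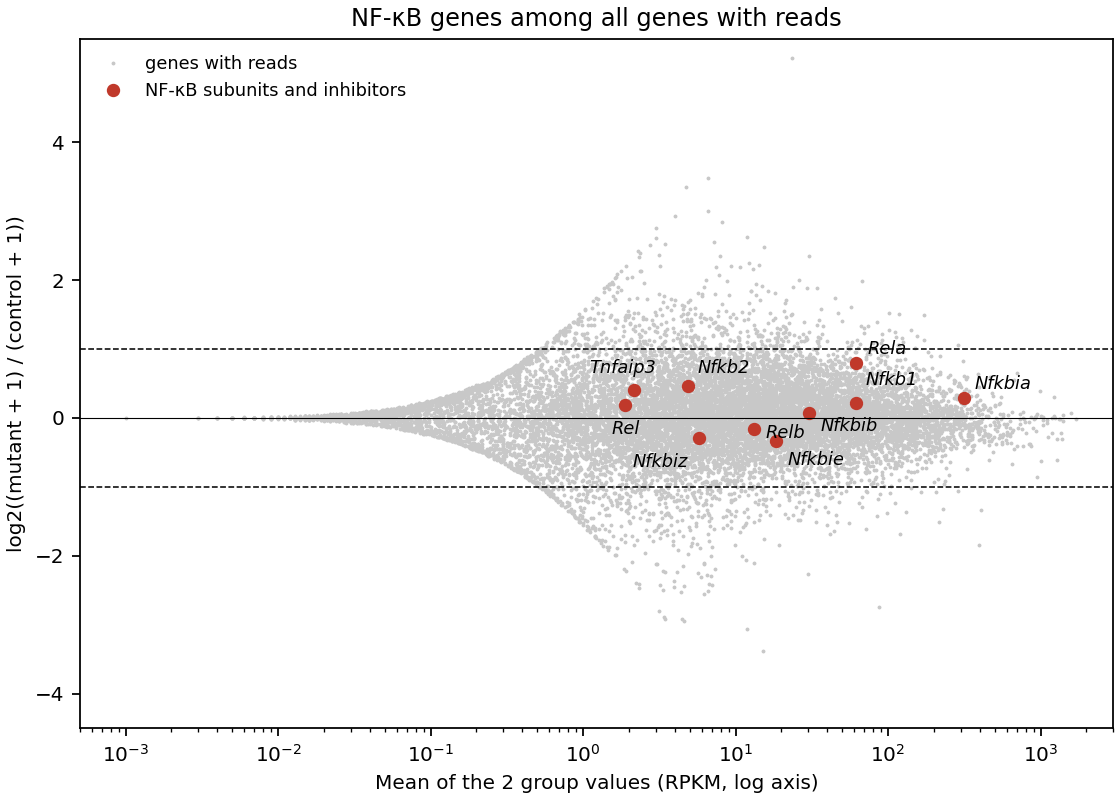
Log2((mutant + 1) / (control + 1)) against the mean of the 2 group values (RPKM, log axis) for all 14539 genes with reads in grey and the 10 members in red, with dashed lines at 2-fold. All members lie inside the dashed lines, with Rela at 0.79 the farthest from 0.

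Among the subunits, Rela, which encodes the transactivating p65 of the canonical dimer (chromosome 19, 5637442 to 5648134), was at 78.6 RPKM in mutants and 44.9 RPKM in controls, 1.75-fold higher. A higher ratio than that of Rela was found in 440 (6.66%) of the 6607 genes that reached 10 RPKM in either group. Nfkb1, the gene of p105 and p50 and its usual partner (chromosome 3, 135584655 to 135691969), was at 66.5 RPKM in mutants and 57.2 RPKM in controls, 1.16-fold higher. The 2 canonical partners were therefore both in the higher direction but unequally. The ratio of Nfkb1 to Rela was 0.847 in mutants and 1.27 in controls. Which of the 2 genes has the larger value depends on the gene lengths used, which are not stated. Rel, which encodes c-Rel, a subunit used most by lymphocytes, was 1.22-fold higher, and Rela exceeded Rel 38.1-fold in mutants and 26.7-fold in controls.

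The group values of the non-canonical pair differed in opposite directions. Nfkb2, the gene of p100 and p52 (chromosome 19, 46300994 to 46312400), was at 5.82 RPKM in mutants and 3.96 RPKM in controls, 1.47-fold higher. Relb (chromosome 7, 19606217 to 19629438) was at 12.4 RPKM in mutants and 14.0 RPKM in controls, a fold of 0.884. The ratio of Relb to Nfkb2 was 2.13 in mutants and 3.54 in controls. On the opposite strand, Nfkb2 shares up to 501 exonic bases with the noncoding gene AC114539.1, which has no row in the table under that name, and up to 299 with Psd. Psd was at 0.604 RPKM in mutants and 0.110 RPKM in controls. Smart-seq2 does not keep strand, so reads of the shared bases cannot be assigned.

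Summed over the 5 subunit genes, the level was 165 RPKM in mutants and 122 RPKM in controls, 1.36-fold higher. Rela made up 47.5% of this sum in mutants and 36.9% in controls. Nfkb1 made up 40.2% in mutants and 47.0% in controls, and Relb 7.50% and 11.5% in mutants and controls. Rel contributed 1.25% in mutants and 1.38% in controls. The summed subunit level of both groups was thus mostly that of the canonical pair, with a larger part from Rela in mutants. These are shares of transcript levels, which depend on the gene lengths used, and gene-level RPKM do not tell processed from precursor protein.

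**Figure D3:**
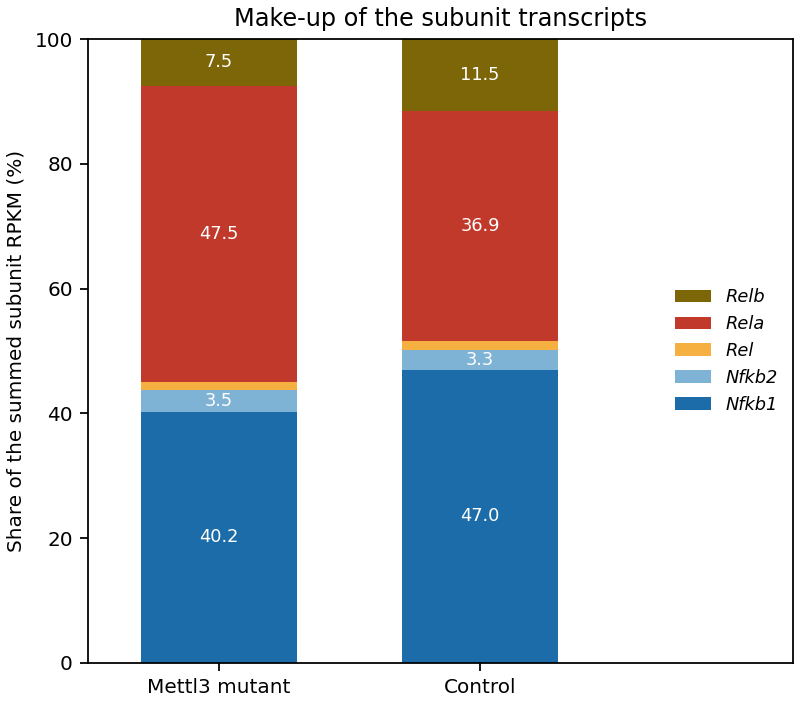
Share of each subunit gene in the summed subunit RPKM (%), with Mettl3 mutants on the left and controls on the right. The Rela share is 47.5% in mutants and 36.9% in controls.

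Of the IkB genes, 2 were higher and 1 lower in mutants. Nfkbia, the gene of IkB-alpha, the main cytoplasmic inhibitor and a fast NF-kB feedback target (chromosome 12, 55489409 to 55492647), was 1.22-fold higher. Nfkbib, which encodes IkB-beta (chromosome 7, 28758251 to 28766644), was at 31.2 RPKM in mutants and 29.8 RPKM in controls, a fold of 1.05. It shares up to 314 exonic bases with the antisense gene Ccer2, which has no row under that name, and up to 42 with the antisense gene Sirt2, which was at 70.5 RPKM in mutants and 75.6 RPKM in controls. Nfkbie, which encodes IkB-epsilon (chromosome 17, 45555700 to 45563169), was at 16.3 RPKM in mutants and 20.7 RPKM in controls, a fold of 0.786 and the lowest of all members. The 3 IkB genes together were at 391 RPKM in mutants and 332 RPKM in controls, of which Nfkbia made up 87.9% in mutants and 84.8% in controls. Set against the subunits, the IkB sum was 2.37 times the subunit sum in mutants and 2.73 times in controls. The ratio of Nfkbia to Rela was 4.37 in mutants and 6.26 in controls, whereas that of Nfkbia to Nfkb1 was 5.17 in mutants and 4.92 in controls. The lower ratio to the subunit sum in mutants thus goes with Rela rather than with Nfkb1.

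The remaining pair are induced regulators of the response. Nfkbiz encodes IkB-zeta, a nuclear IkB protein that assists transcription of secondary response genes (chromosome 16, 55811375 to 55838954), and was at 5.07 RPKM in mutants and 6.41 RPKM in controls, a fold of 0.791. Tnfaip3, the gene of A20, which restrains signalling from the tumour necrosis factor receptor (chromosome 10, 19000910 to 19015410), was at 2.59 RPKM in mutants and 1.72 RPKM in controls, 1.51-fold higher. In these group values the feedback genes Nfkbia, Tnfaip3 and Nfkbie, each with a consensus match in its promoter, did not share a direction. Whether these directions hold across animals cannot be said.

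The depth behind these values can be gauged only roughly. If the small offset of the table stands for 1 read per library, as its values were read, the lowest members had about 442 reads per mutant library (Rel) and about 300.3 per control library (Tnfaip3). Counting error alone would then give a standard error of at most 0.06 on the log2 ratio of a member. The spread between animals, which cannot be seen in group values, is not part of it, and the molecules were not tagged, so reads are not independent molecules. Fewer cells with a transcript and less RNA per cell cannot be told apart in libraries of pooled cells.

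Mettl3 and its complex methylate mRNA within a short motif of which GGACT is the best-known form, so these letters were counted in the longest GENCODE M21 coding transcript of each member. The density was 2.49 per kilobase in Tnfaip3 (11 matches), 2.21 in Rela (6 matches), 2.08 in Nfkb2 (8 matches) and 1.90 in Nfkbia (3 matches). It was 1.36 in Relb, 0.821 in Nfkbie, 0.729 in Nfkb1, 0.486 in Nfkbiz, 0.485 in Nfkbib and 0.402 in Rel. The median of 18536 coding genes of the table was 1.01 per kilobase. The 4 members of highest density were also the 4 of highest log2 ratio, with values of 0.40 for Tnfaip3, 0.79 for Rela, 0.46 for Nfkb2 and 0.29 for Nfkbia. Across the 10 members, Spearman's rho between density and log2 ratio was 0.66 and Pearson's r was 0.69, given as a description of 10 genes measured in the same libraries. Over 12257 coding genes with reads the same rho was -0.0049. Across the members, rho was 0.091 between GC percent and log2 ratio and 0.28 between GC percent and the density. The part of base composition was not tested, and the letters are not measured methylation.

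The rest of the pathway was described with 6 lists of genes that act before, beside or after the members, 95 of them with reads. Of these, 13.7% were 2-fold apart, 11 with the higher and 2 with the lower value in mutants, beside the 7.14% of all genes with reads. The lists were chosen with earlier results of these data known, so the shares are only described.

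**Figure D4:**
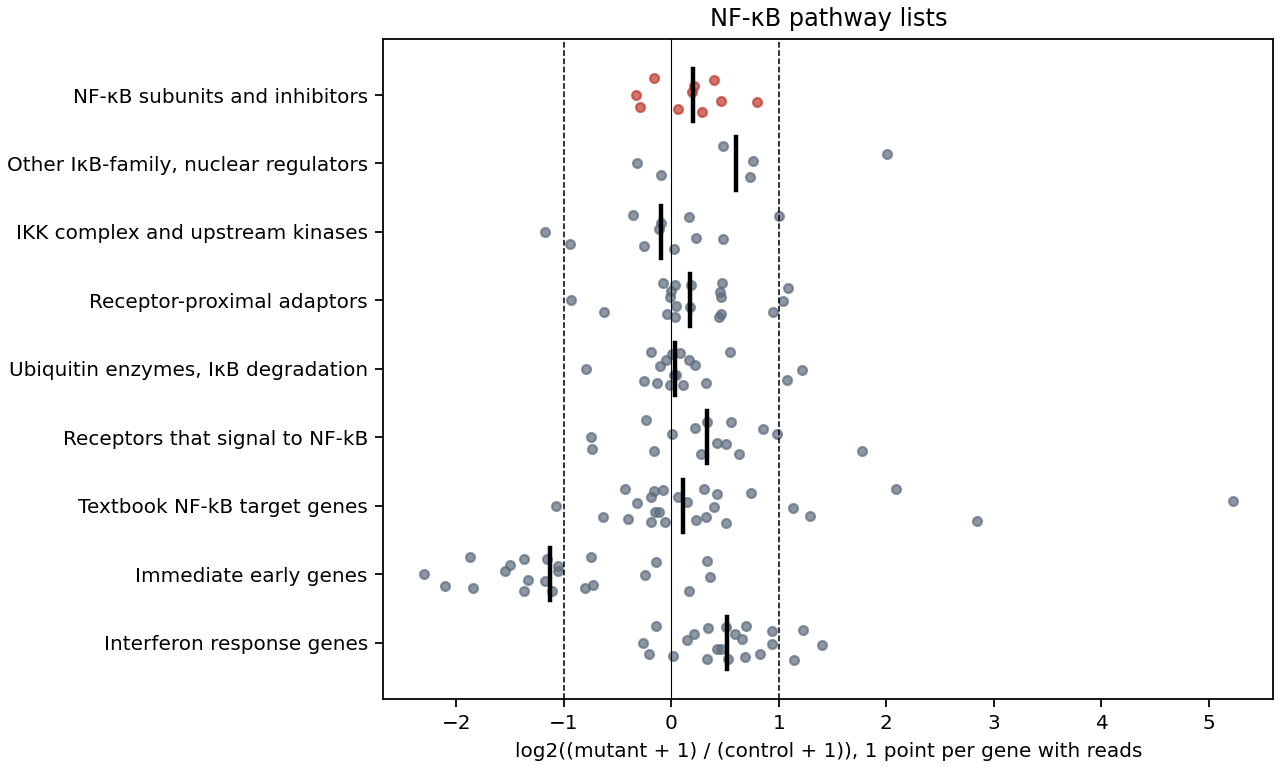
Log2((mutant + 1) / (control + 1)) for each gene with reads in the members (red) and in 8 lists (grey), with a bar at each median and dashed lines at 2-fold. The members all lie inside the dashed lines, while the median of the immediate early genes lies at -1.13.

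Of 6 other IkB-family and nuclear regulator genes, 4 were higher and 2 lower, with a median log2 ratio of 0.61. Bcl3 was the farthest apart. It encodes an atypical nuclear IkB protein that binds p50 and p52 dimers, and was at 42.5 RPKM in mutants and 9.85 RPKM in controls, 4.32-fold higher. Its level thus exceeded that of Relb in mutants and lay below it in controls. Commd1, a gene whose product promotes the degradation of p65, was at 114 RPKM in mutants and 81.2 RPKM in controls and was not 2-fold apart.

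The kinases upstream showed no common direction: 5 of 11 were higher and 6 lower, with a median of -0.10. Map3k8, the gene of the kinase TPL2 that is held by p105, was the only one at least 2-fold apart, at 2.96 RPKM in mutants and 7.93 RPKM in controls. Map3k7, which encodes TAK1, the kinase that activates IKK, lay just short of the threshold at 3.28 RPKM in mutants and 1.14 RPKM in controls, and passed it when the columns were scaled to the same sum. Ikbke, the gene of IKK-epsilon, lay just short on the other side, at 6.32 RPKM in mutants and 13.1 RPKM in controls. By the mean of both groups, Tbk1 and Chuk had the highest levels of this list. Tbk1 was at 37.6 RPKM in mutants and 32.0 RPKM in controls, and Chuk, the gene of IKK-alpha, was at 17.6 RPKM in mutants and 15.6 RPKM in controls.

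Of 19 adaptors near the receptors, 13 were higher and 6 lower, with a median of 0.17. At least 2-fold apart were 2, both higher, beside 7.14% of all genes with reads. These were Tradd and Ripk1, whose products act at the tumour necrosis factor receptor. Tradd, which docks on the death domain of the receptor, was at 108 RPKM in mutants and 50.6 RPKM in controls. Ripk1, the kinase and scaffold that it recruits, was at 26.8 RPKM in mutants and 12.5 RPKM in controls. Irak3, an inhibitory member of the IRAK family, was next to Tradd in level, at 49.7 RPKM in mutants and 48.1 RPKM in controls. Traf2, another adaptor of the same receptor, was lower without being 2-fold apart, at 24.6 RPKM in mutants and 38.7 RPKM in controls.

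Among 18 genes of ubiquitin enzymes and IkB degradation, 11 were higher and 7 lower, with a median of 0.03. At least 2-fold apart were 2, both higher, beside 7.14% of all genes with reads. These were Rnf31 and Fam105b, whose products act on linear ubiquitin chains in opposite ways. Rnf31, the catalytic subunit of the ligase that makes these chains, was at 6.32 RPKM in mutants and 2.47 RPKM in controls. Fam105b, which encodes the deubiquitinase OTULIN that removes them, was at 51.9 RPKM in mutants and 21.7 RPKM in controls. The other subunits of the ligase were not 2-fold apart, with Rbck1 at 112 RPKM in mutants and 104 RPKM in controls and Sharpin at 48.6 RPKM in mutants and 52.3 RPKM in controls. By the mean of both groups, Skp1a and Tax1bp1 had the highest levels, Skp1a with 547 RPKM in mutants and 652 RPKM in controls and Tax1bp1 with 115 RPKM in mutants and 126 RPKM in controls.

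Of 15 receptor genes with reads, 11 were higher and 4 lower, with a median of 0.33, and 3 Toll-like receptor genes had no reads. Tlr6, which pairs with Tlr2 to sense bacterial lipopeptides, was at 2.97 RPKM in mutants and 0.161 RPKM in controls and was the only one at least 2-fold apart. Tnfrsf1a, the main receptor for tumour necrosis factor and the highest of the list, was at 52.1 RPKM in mutants and 36.3 RPKM in controls. Ltbr, which signals through the non-canonical route, was at 19.9 RPKM in mutants and 13.2 RPKM in controls.

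Textbook targets of NF-kB did not move as a block. Of 26 with reads, 14 were higher and 12 lower, with a median of 0.11. Those 2-fold apart were 5 higher genes and 1 lower gene, beside 3.67% higher and 3.47% lower of all genes with reads. The higher ones were the chemokine genes Ccl5, Cxcl10 and Cxcl2, the prostaglandin synthase gene Ptgs2, and Cd83, a marker of activated antigen-presenting cells. Cd83 was at 3.34 RPKM in mutants and without reads in controls. Cxcl2 was at 3.44 RPKM in mutants and 0.818 RPKM in controls, and Ptgs2 was at 1.59 RPKM in mutants and 0.177 RPKM in controls. Ccl5, at 46.6 RPKM in mutants and 0.270 RPKM in controls, and Cxcl10, at 14.96 RPKM in mutants and 1.22 RPKM in controls, are also induced by interferon. How many mutant libraries carried these values cannot be read from group values. Ccl4, a chemokine gene, was lower, at 16.7 RPKM in mutants and 36.3 RPKM in controls.

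Irf1 and Ier3 had the highest levels among the targets, by the mean of both groups. Irf1, a transcription factor gene, was at 80.8 RPKM in mutants and 56.5 RPKM in controls, and Ier3 was at 47.4 RPKM in mutants and 74.4 RPKM in controls. The adhesion gene Icam1 was at 16.6 RPKM in mutants and 22.2 RPKM in controls, and the antiapoptotic gene Birc3 at 14.2 RPKM in mutants and 15.5 RPKM in controls. Tnf, Il6, Cxcl1, Csf2, Il12b, Sele and Nos2 had no reads in either group.

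**Figure D5:**
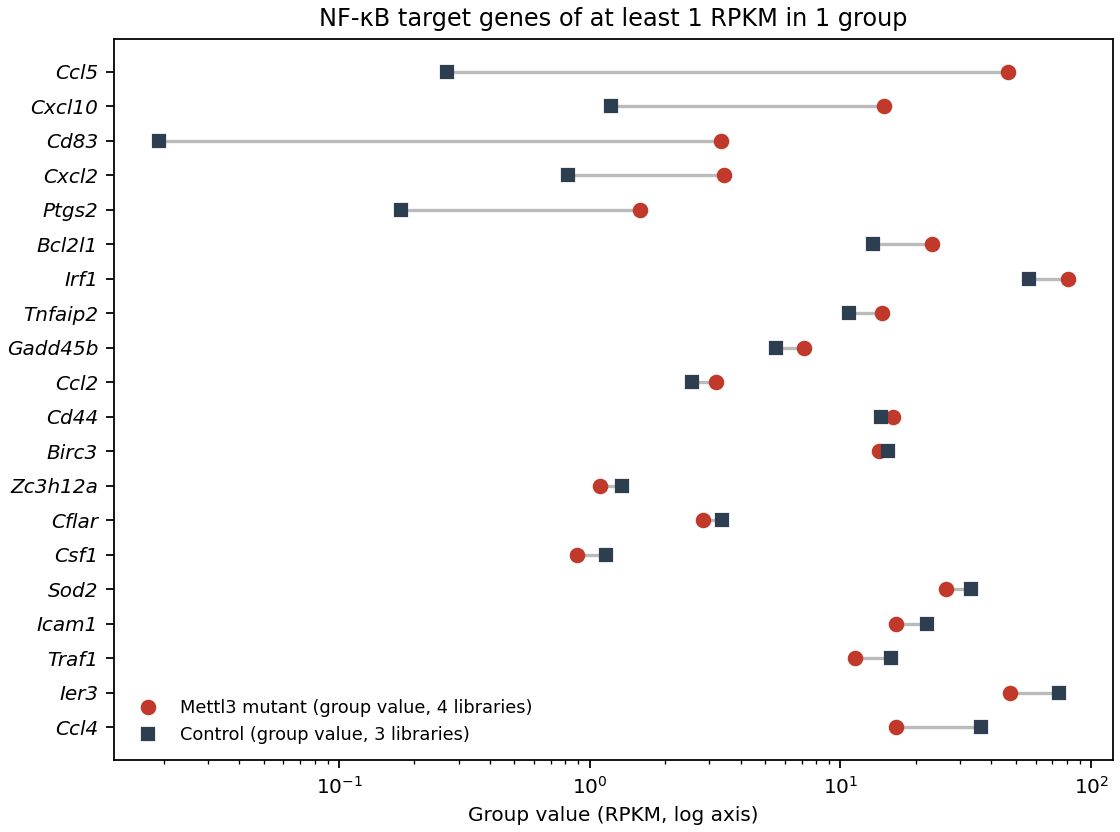
Deposited group values (RPKM, log axis) of the 20 target genes with at least 1 RPKM in 1 group, circles for Mettl3 mutants and squares for controls, ordered by log2 ratio. Ccl5, Cxcl10, Cd83, Cxcl2 and Ptgs2 lie far to the right in mutants, while most of the rest are close together.

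Other inducible genes also differed between the groups. Of 22 immediate early genes with reads, which respond within minutes to stimuli and to cell handling, 19 were lower in mutants. At least 2-fold lower were 14, beside 3.47% of all genes with reads. The summed level of the immediate early genes was 893 RPKM in mutants and 2383 RPKM in controls. Fos, the highest of these in controls, was at 171 RPKM in mutants and 617 RPKM in controls, and Dusp1, the highest in mutants, at 230.4 RPKM in mutants and 582 RPKM in controls. Nfkbia and Tnfaip3, which are often induced with these genes, were higher in mutants, whereas Nfkbiz and Ier3 were lower. Of 22 interferon response genes, 19 were higher and 3 at least 2-fold higher, beside 52.6% and 3.67% of all genes with reads. The summed level of the interferon response genes was 785 RPKM in mutants and 526 RPKM in controls. The 3 lower genes were Mx1, Mx2 and Usp18, with Usp18 at 41.9 RPKM in mutants and 50.5 RPKM in controls. Irf7 was at 73.3 RPKM in mutants and 27.0 RPKM in controls. The part of either programme in the values of the members was not tested.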

How the data were processed

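The deposited RPKM were made by the authors and hold 1 column for the 4 Mettl3 mutant libraries and 1 for the 3 control libraries, per the file headers. Libraries were Smart-seq2, read as pairs of 100 bases, per the labels' protocols. The submitters' processing notes name mm10, Picard and edgeR, without their roles. How reads were aligned, counted and averaged is not stated in the sources at hand.

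The members and all gene lists were chosen with earlier results of these data known. In 8499 genes the mutant/control ratio was 0.841 (tolerance 3e-06), read as an offset of 1 read per library and as genes without reads. The offset was 0.0349 RPKM in mutants and 0.0414 RPKM in controls on 1 kb, equal to libraries of 28.7 and 24.1 megareads in mutants and controls. Approximate reads used GENCODE M21 exon lengths, which were within 20% of the implied length in 59.1% of 7641 offset genes. The text names, by rule, all members and, from each pathway list, genes 2-fold apart and the 2 of highest level. Others were named after their values were seen. The threshold count was tested on simulated data and the motif search on made sequences. Python 3.11.15 with pandas 2.3.3 and NumPy 2.4.6 was used. Coordinates are RefSeq GRCm38.p6, the assembly of mm10. Alternatives were the pseudocount, scaling, threshold and a minimum level.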

Additional observations from a re-analysis of the deposited data

How the results depend on the processing

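The log2 ratios of the 10 members kept their direction under both other pseudocounts and both rescalings. Rela stayed between 0.77 and 0.81, Nfkbie between -0.35 and -0.32, and Nfkbib, the closest to 0, between 0.04 and 0.08. No member was 2-fold apart at any of these settings. At 1.5-fold with the pseudocount of 1 RPKM, 1 was apart, and with no pseudocount Tnfaip3, at 0.59, was past that threshold too. The counts of the lists moved more. With a pseudocount of 0.1 RPKM, genes 2-fold apart numbered 2 of the other IkB-family and nuclear regulators, 3 kinases, 4 adaptors, 7 receptors and 5 interferon response genes, and over all genes 1508 were higher and 1347 lower, in place of 534 and 504. With no pseudocount the counts were 2, 3, 4, 7 and 5 in these lists, 11 among the target genes, and 1981 higher and 1674 lower over all genes. A smaller pseudocount lets genes of low level pass. At 1.5-fold the counts were 3 nuclear regulators, 3 kinases, 5 adaptors, 6 receptors and 10 interferon response genes, and 1883 higher and 1516 lower over all genes. Scaled to the same sum, 2 kinases were 2-fold apart in place of 1, because Map3k7 passed the threshold. No paired analysis was possible because each group has a single column, and leaving out replicates was not run for the same reason. Under the reading of the offset as 1 read per library, the members rest on about 300.3 reads or more per library. At the same gene length, a gene of lower level rests on fewer.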
